A study of Mus musculus with 2 samples.

Results

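The genes described here code for the chaperones of the endoplasmic reticulum (ER) and for the SEC proteins that carry secretory cargo into and out of it. Members were every measured gene whose platform symbol is Sec followed by a digit, and 21 named genes: the ER chaperones and folding enzymes, their stress regulators, and the export factors Mia3, Sar1a and Sar1b. This gave 47 of the 30142 named genes on the array, of which 28 carried a Sec symbol and 19 were among the named genes. Pdia4 had no transcript cluster of its own: its only one is shared with the microRNA gene Mir704 and went from 9.47 to 9.65, a difference of 0.18. Fkbp10 had no transcript cluster listed under its symbol. The translocon subunit gene Sec61g shares a cluster with a pair of predicted genes and was likewise left out (6.99 to 7.07). Not every Sec symbol names a part of the ER route. Sec1 is a fucosyltransferase gene, and the 5 SEC14-like genes code for lipid-binding transfer proteins.

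RNA came from stromal cells grown out of inguinal fat of C57BL/6J mice that were 6 to 10 weeks old, in DMEM with serum, with 1 wild-type sample and 1 Wisp1 knockout sample. In the knockout line, exons 1 to 5 of Wisp1 on chromosome 15 were floxed, and a cross to a Cre line gave a deletion in the whole animal; the labels do not say whether wild-type mice carried any of these alleles, or how many mice gave each sample. Wisp1 (now Ccn4) encodes a secreted matricellular protein, and the study's title places it in cartilage formation during heterotopic ossification. Each sample was run on 1 array, and values are RMA expression values on the log2 scale per transcript cluster, a group of probes for a single transcript unit. Every difference is the knockout array minus the wild-type array on that log2 scale; with no replicates there is no error, no test and no p-value, and differences compare these 2 arrays rather than the genotypes.

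Secretory proteins enter the ER through the SEC61 channel, lose their signal peptide, fold with the help of chaperones and disulfide isomerases, and leave in vesicles made by the COPII coat. Collagen-producing fibroblasts depend on this route, because procollagen needs its own chaperones and large carriers. When folding falls behind, the sensors IRE1, ATF6 and PERK turn on the unfolded protein response, which induces many of the chaperones through short promoter elements.

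The targeted gene Wisp1 was 5.25-fold lower in the knockout array, with values of 7.79 and 5.40. Values over all 65956 transcript clusters had medians of 3.93 and 3.92. Differences are read against 15072 tested genes, which are those with a mean of the 2 arrays no lower than 4.65, the median over named genes. Of the members 44 passed this filter; Sec31b, Sec14l3 and Sec14l4 lay under it and are kept in every count of members. Of 11 stromal marker genes measured 9 were at or above the median level. Among them were Pdgfrb (10.38 and 10.49 in wild type and knockout), Thy1 (10.34 and 10.43), Cd34 (5.43 and 5.51) and Pi16 (5.63 on both). Nt5e (3.27 and 3.28) and Dpp4 (2.79 on both) were below the median level. Some of these markers differed by more than most ER and SEC genes, Lum (0.60) and Dcn (0.32) upward and Cd44 (-0.30), Itgb1 (-0.22) and Eng (-0.21) downward.

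Most ER chaperone and SEC genes were a little higher in the knockout array, and none differed by as much as 1.5-fold. Of the 47 members 34 were higher, 11 lower and 2 equal; their differences had a median of 0.085 and ran from -0.19 to 0.37. Among the tested genes 56.9% were higher and 39.9% lower, and their median was 0.03. At 1.5-fold 0.717% of the tested genes were higher and 0.464% lower, and at 2-fold 0.0663% and 0.0995%. At a difference of at least 1.2-fold (0.26 on the log2 scale) 3 members were higher, Sec16b, Herpud1 and Xbp1, which is 6.38% of members beside 6.4% of the tested genes, so the count past this size is at the background. Under quantile normalization and loess centring 2 members passed it, and Xbp1 (0.26 and 0.25) fell just short. No member was 1.2-fold lower, beside 4.27% of the tested genes. At 1.1-fold 15 members were higher (31.9%) and 4 lower, beside 21.4% and 12.5% of the tested genes. Some of the 15 fell under 1.1-fold (0.14) when the arrays were rescaled. Hspa5 was at 0.13 and 0.12 under quantile normalization and loess centring, and P4hb at 0.13 under both. In bulk RNA a change in the make-up of the culture and a change of RNA per cell cannot be told apart.

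The small size of these differences makes them sensitive to how the arrays are scaled. With quantile normalization 30 of 47 members were higher (median 0.056) beside 48.4% of the tested genes, and after a loess curve on mean level was subtracted 31 were higher (median 0.047) beside 50.2%. As deposited, under these 2 scalings and after centring each array on its median, 29 members were higher and 8 lower throughout, and the 2 equal members took either sign. The sign flipped under at least 1 scaling for 8 members, Calr, Pdia3, Edem1, Sec23b, Sec61b, Sec62, Sec22c and Sar1a, none of which differed by more than 0.041 as deposited. Over the 2788 genes at least as bright as the median member (8.21), a background chosen after seeing the data, 59.1% were higher and the median was 0.04. Without Sec1 and the SEC14-like genes, also set apart after seeing the data, 33 of 41 members were higher, with a median of 0.11.

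**Figure D1:**
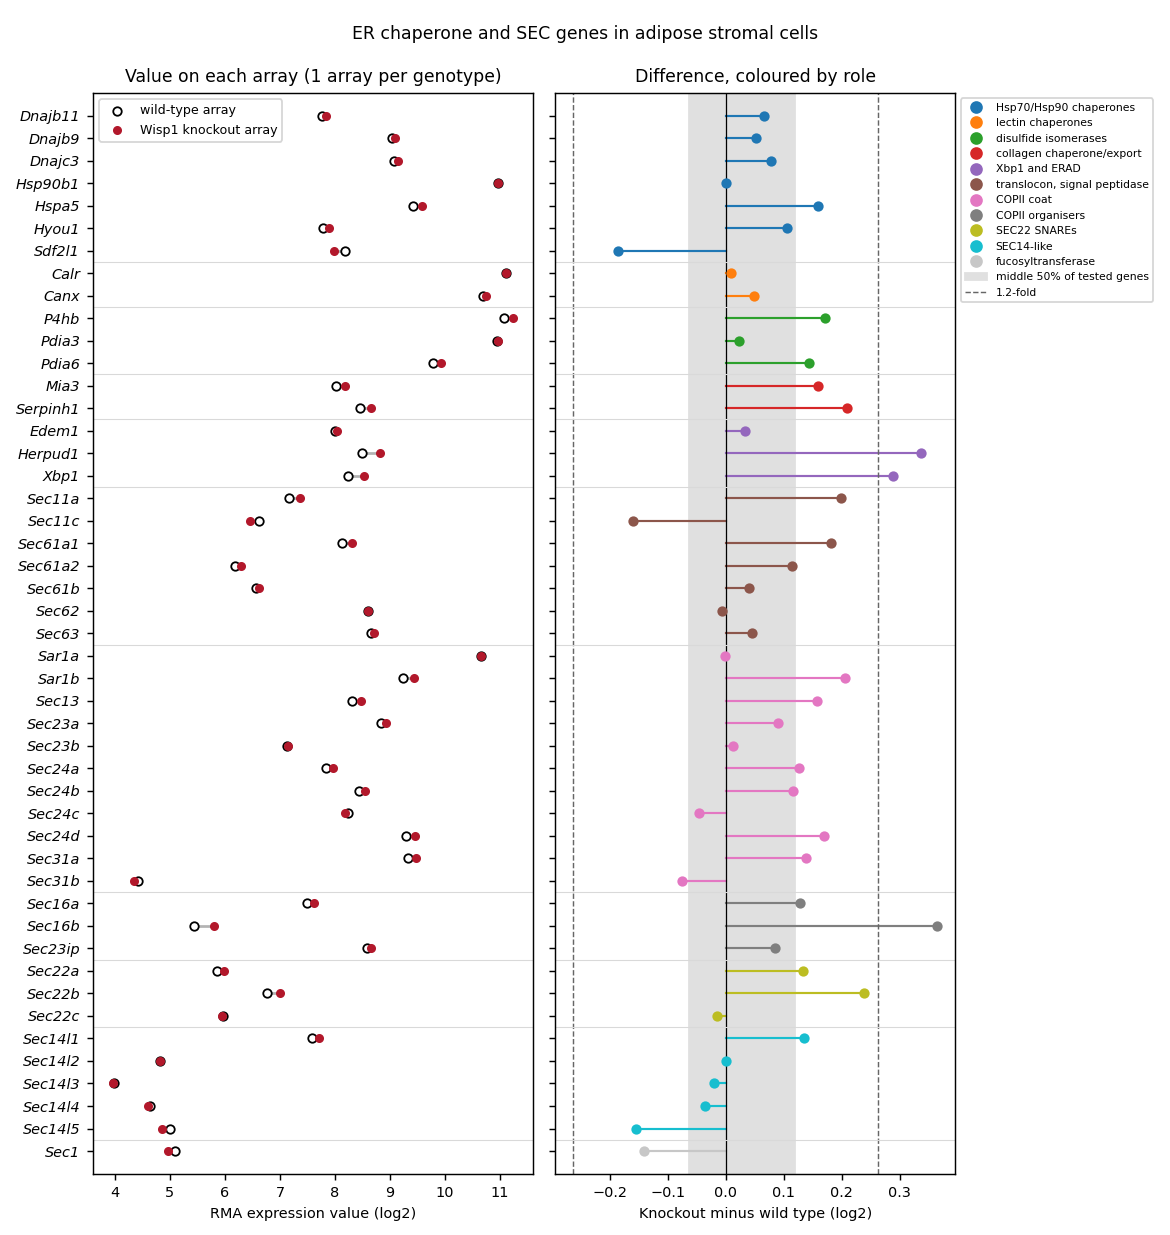
Left, RMA value (log2) of each of the 47 genes on the wild-type array (open circles) and the Wisp1 knockout array (red), 1 array per genotype; right, knockout minus wild type (log2), coloured by role, with the interquartile range of the tested genes in grey and 1.2-fold as dashed lines. Sec16b (0.37), Herpud1 (0.34) and Xbp1 (0.29) lie past the right dashed line, and Sdf2l1 (-0.19) is the lowest.

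**Figure D2:**
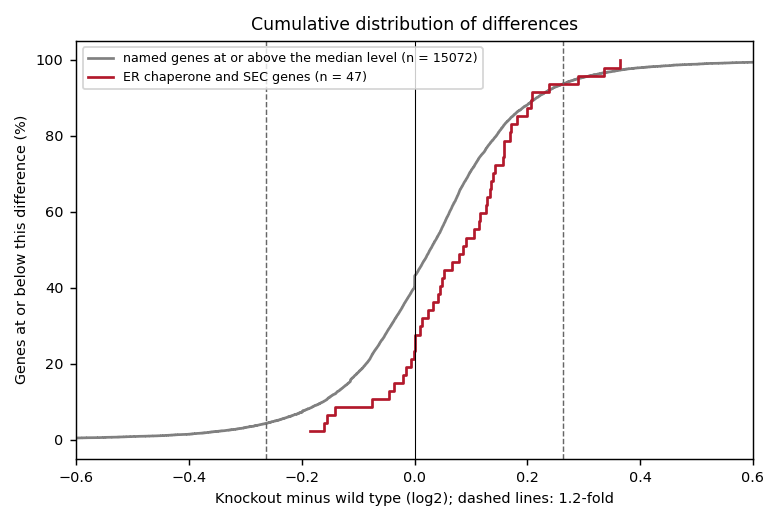
Cumulative share of genes (%) against the difference, knockout minus wild type (log2), for the 47 members (red) and the 15072 tested genes (grey); dashed lines mark 1.2-fold. The red curve lies to the right of the grey one around 0 and meets it near 1.2-fold higher.

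The chaperones of the ER lumen are described first. Hspa5, the Hsp70 chaperone BiP that also holds the stress sensors inactive, went from 9.42 to 9.58, a difference of 0.16 or 1.12-fold. Its nucleotide exchange factor Hyou1 went from 7.77 to 7.88 (0.11). The 3 J-domain partners that hand clients to BiP differed less: Dnajc3 by 0.08, Dnajb11 by 0.07 and Dnajb9 by 0.05. Hsp90b1, the Hsp90 of the ER known as GRP94, had exactly the same value on both arrays, 10.96. Sdf2l1, a stress-induced partner of BiP and Dnajb11, went the other way, from 8.17 to 7.99 (-0.19), and 8.30% of the tested genes had a lower difference. The 7 genes of this group thus held 5 higher members, 1 equal and 1 lower, with a median of 0.07.

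The calnexin cycle, in which lectins hold glycoproteins while they fold, was nearly level between the arrays. Calr, the soluble lectin calreticulin, was at 11.10 and 11.11 (0.0088, below 0 under quantile normalization and loess centring). Canx, its membrane-bound relative calnexin, was at 10.69 and 10.74 (0.05). Pdia3, the disulfide isomerase that works with both lectins, was at 10.94 and 10.96 (0.02, also below 0 under those 2 scalings). The disulfide isomerases that act apart from the lectins differed more. P4hb, the classical protein disulfide isomerase and the beta subunit of the collagen prolyl 4-hydroxylases, went from 11.07 to 11.24 (0.17), and Pdia6 from 9.78 to 9.93 (0.14).

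Genes that serve collagen were among the higher members. Serpinh1, the collagen chaperone HSP47, went from 8.45 to 8.66 (0.21) on its brighter cluster. A dimmer cluster of the same gene went from 7.47 to 7.83 (0.36), and with the mean of both Serpinh1 also passed 1.2-fold (0.29). Mia3, the receptor TANGO1 that loads bulky procollagen into COPII carriers, went from 8.01 to 8.17 (0.16).

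Herpud1 and Xbp1, genes of the ER stress response, had the highest differences of all members after Sec16b. Herpud1, a membrane protein that organises the degradation of misfolded ER proteins, went from 8.49 to 8.83, a difference of 0.34 or 1.26-fold. Xbp1, whose transcript is spliced by IRE1 to give an active transcription factor, went from 8.24 to 8.53 (0.29, 1.22-fold, and under 1.2-fold with quantile normalization or loess centring). The array value does not separate spliced from unspliced Xbp1. Edem1, a lectin of the degradation route that is a known target of XBP1, was at 7.99 and 8.03 (0.03) and below 0 under quantile normalization and loess centring.

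The promoters of these genes are shown because the unfolded protein response acts on them through 3 defined elements: the ER stress element ERSE, which is CCAAT and CCACG with 9 free bases between them, its variant ERSE-II, which is ATTGG and CCACG with 1 free base between them, and the element UPRE, TGACGTG. RefSeq promoter windows on GRCm38.p6, from 250 bases before to 50 after an annotated start, were found for 43 of the 47 members and searched on both strands for exact matches. Hyou1, Sec11c, Sec14l4 and Sec61a1 had no window. The lines below give, on the strand of the gene and 5′ to 3′, the stretch around each match that lies upstream of the start, with the matches in capitals.
Hspa5: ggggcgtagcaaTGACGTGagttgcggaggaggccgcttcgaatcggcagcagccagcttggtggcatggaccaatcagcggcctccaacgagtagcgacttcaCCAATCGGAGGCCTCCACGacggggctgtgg
Hsp90b1: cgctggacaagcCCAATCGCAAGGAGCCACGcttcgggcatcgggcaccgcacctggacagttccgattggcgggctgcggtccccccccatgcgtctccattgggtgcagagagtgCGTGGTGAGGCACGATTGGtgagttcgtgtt
Calr: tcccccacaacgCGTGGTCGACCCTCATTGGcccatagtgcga
Canx: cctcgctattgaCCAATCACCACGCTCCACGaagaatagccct
Dnajc3: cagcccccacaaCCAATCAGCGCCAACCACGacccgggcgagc
Pdia6: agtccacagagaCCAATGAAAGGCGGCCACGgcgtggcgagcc
Herpud1: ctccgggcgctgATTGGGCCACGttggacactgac
Mia3: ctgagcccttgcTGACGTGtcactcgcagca
Sec16b: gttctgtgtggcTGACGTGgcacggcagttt
Sec24d: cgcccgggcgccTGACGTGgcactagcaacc

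Hspa5 is on the plus strand (chr2:34771921-34772055), with UPRE from 157 bases before the start and ERSE from 65 bases before it. Hsp90b1 is on the minus strand (chr10:86705521-86705668) and was the only member with 2 ERSE matches, of which the one nearer the start reads on the opposite strand. The single ERSE matches of Calr (chr8:84847063-84847105, minus strand, element on the opposite strand), Canx (chr11:50325788-50325830, minus), Dnajc3 (chr14:118937815-118937857, plus) and Pdia6 (chr12:17266479-17266521, plus) began between 162 and 98 bases before the start. The ERSE-II match of Herpud1 (chr8:94386365-94386399, plus) began 52 bases before its start. UPRE matches stood 86 bases before the start in Mia3 (chr1:183369633-183369663, minus), 44 in Sec16b (chr1:157506740-157506770, plus) and 26 in Sec24d (chr3:123267458-123267488, plus). Further matches lay just after the start, ERSE-II in Dnajb11 and UPRE in Sec23a. No match overlapped that of another motif in a member's window.

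ERSE was found in 6 of the 43 members (14.0%) and in 37 of the 27025 genes with a window (0.137%). ERSE-II was found in 2 members (4.65%) beside 0.0444% of genes, and UPRE in 5 members (11.6%) beside 2.22% of genes. Counted over all 32851 promoter windows of that length, the shares were 0.119% for ERSE, 0.0365% for ERSE-II and 2.01% for UPRE. The named members were chosen as ER chaperones and stress regulators, genes on which the unfolded protein response is known to act through these elements. Their higher shares were thus partly fixed by that choice and are not a result of these data. A match is a description of the letters and not a shown binding site.

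Members with and without a stress element covered overlapping ranges of difference. The 8 members with ERSE or ERSE-II had a median of 0.07 beside 0.09 for the 35 without either, from 0 in Hsp90b1 to 0.34 in Herpud1. The 31 members with none of the 3 elements in the window had a median of 0.05, from -0.19 in Sdf2l1 to 0.29 in Xbp1. The search misses inexact elements and any outside the window, so these members cannot be said to lack stress elements. The 5 members with UPRE were all higher, by 0.09 in Sec23a to 0.37 in Sec16b, with a median of 0.16; Hspa5 is counted in both groups. Over all 309 tested genes with UPRE, however, 185 were higher and the median was 0.05, close to the tested genes as a whole.

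**Figure D3:**
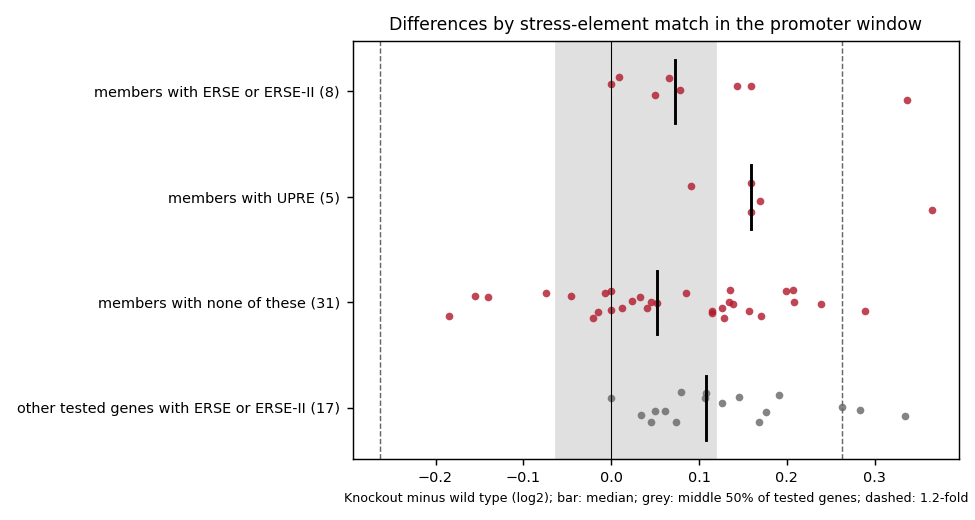
Difference, knockout minus wild type (log2), of each gene by the element matched in its promoter window, with bars at the median, the interquartile range of tested genes in grey and 1.2-fold as dashed lines. The 5 members with UPRE lie between 0.09 and 0.37, and the 31 with no match spread from -0.19 to 0.29; the bottom row holds 17 tested genes outside the members.

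At the entry to the ER, subunits of the same machines differed unequally. Sec61a1, the pore of the translocon, went from 8.13 to 8.32 (0.18), and its paralog Sec61a2 from 6.18 to 6.30 (0.12). The small subunit gene Sec61b differed by 0.04 and fell below 0 under quantile normalization. Sec62 and Sec63, which assist import after translation, differed by -0.0069 and 0.05, the former above 0 after median centring. The largest gap between paralogs was in the catalytic subunits of signal peptidase: Sec11a went from 7.15 to 7.35 (0.20) and Sec11c from 6.62 to 6.46 (-0.16), opposite signs that held under all scalings.

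COPII is built from the GTPase SAR1, an inner layer of SEC23 and SEC24 and an outer cage of SEC13 and SEC31. Of its 11 coat genes 8 were higher and 3 lower; the median was 0.12, and none reached 1.2-fold. Sar1b, the form linked to export of large cargo such as chylomicrons, went from 9.24 to 9.44 (0.21), whereas Sar1a was at 10.65 on both arrays (-0.0005, with either sign among the scalings). Of the cargo-binding SEC24 adaptors Sec24d went from 9.29 to 9.46 (0.17), Sec24a differed by 0.13 and Sec24b by 0.12, while Sec24c was lower (8.23 to 8.18, -0.05). Sec23a, the form whose loss impairs collagen secretion in bone and cartilage, differed by 0.09 and its paralog Sec23b by 0.01, the latter below 0 under quantile normalization and loess centring. In the outer cage Sec13 differed by 0.16 and Sec31a by 0.14, and the dim Sec31b was lower (4.42 to 4.35, -0.07).

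The genes for the proteins that place the coat were all higher. Sec16b, a shorter form of the scaffold of ER exit sites, had the highest difference of the members, from 5.43 to 5.80 (0.37, 1.29-fold). Of the tested genes 97.3% had a lower difference. The signal of Sec16b was low, however, with a wild-type value close to the 5.40 still read for the deleted Wisp1 on the knockout array. The main scaffold gene Sec16a went from 7.49 to 7.62 (0.13), and Sec23ip, which bridges both coat layers, from 8.58 to 8.66 (0.09). Among the SEC22 genes, Sec22b, the SNARE of traffic between ER and Golgi, went from 6.76 to 6.99 (0.24), just short of 1.2-fold. Sec22a differed by 0.13, and Sec22c by -0.01, a sign that turned after median centring.

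The members outside the ER route are given apart, a split made after seeing the data. Of the 5 SEC14-like genes only Sec14l1, which is widely expressed, was higher (7.58 to 7.72, 0.14). Sec14l2 had the same value on both arrays (4.81), Sec14l3 and Sec14l4 differed by -0.02 and -0.04, and Sec14l5 was lower (5.01 to 4.85, -0.15). Sec1, the fucosyltransferase gene, was also lower (5.10 to 4.95, -0.14). Their values on the arrays, apart from Sec14l1, lay between 3.96 and 5.10; over all named genes, dim ones included, 47.0% were higher and the median was 0.

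Other genes along the route were taken from 15 lists, chosen with earlier results of these data known, and 175 list genes were measured. At the ER membrane, 8 of 9 translocon-associated and signal peptidase genes were higher (median 0.07), led by Ssr2 of the translocon-associated complex (10.04 to 10.43, 0.39) and Tram2, a translocation protein used by collagen-making cells (0.29), of which only 1 gene passed 1.2-fold under quantile normalization and loess centring, with Ssr4 lowest (-0.0038, above 0 after median centring). Of 12 oligosaccharyltransferase genes, whose products attach N-glycans, 10 were higher (median 0.12, Ostc 0.25, Tusc3 -0.13). Signal recognition particle genes had 5 of 8 higher (median 0.08, Srpr 0.19, Srp14 -0.13). The 8 glycan-trimming genes had a median of 0.03 and the 18 further oxidoreductases a median of 0.02, and both medians fell below 0 under quantile normalization and loess centring. Uggt2 (0.23) and Man1a2 (-0.03) were the extremes of the former, and Ero1a, the oxidase that recharges disulfide isomerase (8.70 to 9.11, 0.41), and Dnajc10 (-0.12) those of the latter among genes at or above the median level. Of 7 prolyl isomerase genes 5 were higher (median 0.08), from Fkbp2 at -0.07 to Fkbp7 at 0.34.

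In vesicle traffic, all 12 COPI coat genes, which return proteins from Golgi to ER, were higher as deposited and under each scaling, by 0.08 in Copg1 to 0.21 in Copz2, with a median of 0.13, and none reached 1.2-fold. Cargo receptors and export factors had 15 of 22 higher (median 0.10), with Kdelr3, a receptor that retrieves ER chaperones, at 0.27 (no gene of this list passed 1.2-fold under quantile normalization or loess centring) and Tmed5 at -0.17. Of 14 ER to Golgi SNARE and tether genes 10 were higher (median 0.06), with 2 subunits of the same tether at the ends, Trappc1 at 0.25 and Trappc4 at -0.25. The exocyst, which tethers vesicles at the cell surface, had 6 of 9 genes lower (median -0.05), with Exoc8 lowest at -0.27 (short of 1.2-fold after median centring) and Exoc1, the highest at or above the median level, at 0.05.

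Among stress genes the PERK and ATF4 branch stood highest. All 11 of its genes were higher under every scaling, with a median of 0.32, and 7 passed 1.2-fold as deposited (6 under quantile normalization and under loess centring): Trib3, a pseudokinase (0.79), Chac1, which degrades glutathione (0.65), Vldlr (0.35), Ddit4 (0.34), the stress factor Ddit3 or CHOP (0.33), Ppp1r15a, which restores translation (0.32), and Asns (0.27). Of the tested genes 6.4% were at least 1.2-fold higher as deposited. Nupr1 was the lowest of the 11 (0.07). Whether PERK itself was more active was not tested. The sensors themselves differed little, with Ern1, encoding IRE1, at 0.09, Atf6 at -0.04 and Eif2ak3, encoding PERK, at -0.05, the lowest of the 10 sensor and factor genes. Creb3l1, the membrane-bound factor OASIS that drives collagen secretion genes, was highest there (9.22 to 9.53, 0.31). Degradation genes had 10 of 14 higher (median 0.09), with Derl1 at 0.16 and Vcp at -0.06.

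Procollagen is the main bulk cargo of fibroblasts. Of 9 fibrillar chain genes 8 were higher (median 0.39) and 6 passed 1.2-fold as deposited and under each scaling: Col1a2 (0.52), Col1a1 (0.50), Col11a1 (0.46), Col3a1 (0.43), Col5a1 (0.39) and Col5a2 (0.33), with Col5a3 at 0.23, Col2a1 at 0.18 and Col11a2 at -0.02. Of 12 procollagen modifying enzymes 9 were higher (median 0.15). Past 1.2-fold were 5 of them (4 under quantile normalization and loess centring), the lysyl hydroxylases Plod1 (0.69) and Plod2 (0.62) and the prolyl hydroxylase subunits P4ha3 (0.34), P4ha2 (0.32) and P4ha1 (0.28), while the dim P3h2 was lower (-0.28) and P3h4 was at -0.12. Beside these counts, 6.4% of the tested genes were at least 1.2-fold higher and 4.27% lower as deposited.

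**Figure D4:**
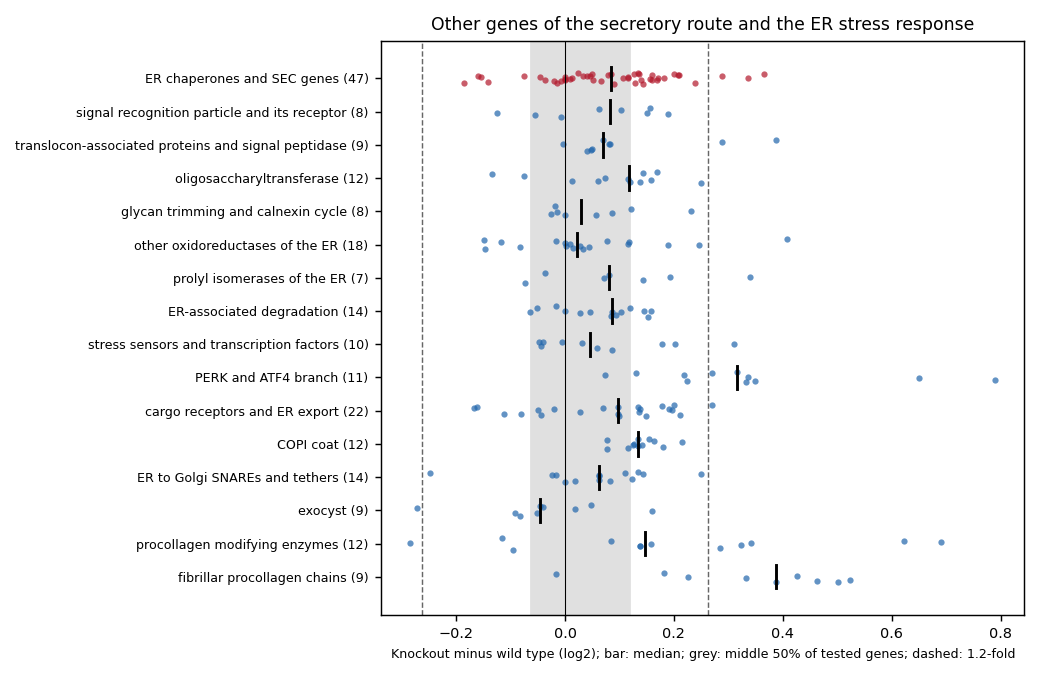
Difference, knockout minus wild type (log2), of each measured gene of the 15 other lists (blue) and of the members (red, top), with bars at the median, the interquartile range of tested genes in grey and 1.2-fold as dashed lines. Medians run from -0.05 for the exocyst to 0.39 for the fibrillar procollagen chains, with 0.32 for the PERK and ATF4 branch.

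Markers of other cell types also differed between the arrays. Of 14 macrophage genes 10 were higher, 6 of them past 1.2-fold, beside 4.70% of all named genes higher by that much. Among the 6 was Lyz2 (6.14 to 7.43), while Cd14 was the lowest of the 14 (-0.18). The summed level of the 14 went from 8.59 to 9.17 on the log2 scale, and 7 lay below the median level. Of the defining receptors Adgre1 (3.33 and 3.25) and Csf1r (4.61 and 4.62) were below the median level on both arrays. Pericyte and smooth muscle markers had 5 of 8 lower, from Mcam at -0.69 to Des, which was higher by 0.41. Their summed level was 9.84 and 9.38, in which the brightest genes, Mcam and Myh11 (-0.51), weigh most. Mature adipocyte markers had 5 of 8 lower (summed 8.58 and 8.40), with Retn at -1.08 and Adipoq at -0.64, both below the median level. Plasma and B cell genes, of interest because such cells are rich in secretory machinery, had a summed level of 7.86 and 7.84, and 7 of 8 lay below the median level, the exception being Sdc1. Endothelial markers (7.27 and 7.41) and epithelial and mesothelial markers (7.46 and 7.43) were likewise mostly below it, though the dim endothelial genes Cdh5 (3.81 to 4.62) and Emcn (3.24 to 4.04) were each higher by 0.80, and Krt18 was lower (-0.35). The part of these cells in the differences of the ER and SEC genes was not tested.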

How the data were processed

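For each of 2 arrays the authors deposited a log2 value per transcript cluster, made by RMA with Partek per the submitters' processing notes; versions, the arrays normalized together and the genome build are not given in the sources used here, and the scale was inferred from the range of values. RMA makes the arrays it handles together alike in distribution, so a shift shared by most genes can be hidden. These 2 arrays were not fully alike, as a further quantile normalization moved the median of the tested genes from 0.028 to -0.0053. Of 65956 clusters, 30604 listed exactly 1 gene symbol in the platform annotation, 2146 several and 33206 none; current symbols were looked up by Entrez ID in the RefSeq table of GRCm38.p6. For each gene the cluster with the highest mean was kept. Exactly equal values on both arrays were found for 2938 clusters (4.45%), and for 471 of the tested genes.

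Differences were knockout minus wild type with no further normalization and no test, since there was 1 array per group, and the number of arrays limits the precision. The members, lists and thresholds were chosen with earlier results of these data known. Named genes were all members, Wisp1, and in each list the genes past 1.2-fold and the highest and lowest at or above the median level; others, such as Ern1, Atf6, Pdgfrb and Thy1, were named after their values were seen, and of the marker lists only examples are named. Counting was tested on simulated data with planted shifts well above the simulated noise, which checks the code and not the reported counts. The tools were matplotlib 3.10.9, statsmodels 0.14.6, pandas 2.3.3, numpy 2.4.6 and Python 3.11.15.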

Additional observations from a re-analysis of the deposited data

How the results depend on the processing

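The count of members at least 1.2-fold higher (3) was 2 under quantile normalization and loess centring, where Xbp1 no longer passed, 4 with the mean over clusters, 3 under the other scaling and filter choices, and 15 at 1.1-fold, 0 at 1.5-fold and 0 at 2-fold; the lower count (0) was 4 at 1.1-fold. Scaling moved the medians, which are small. The median of all members (0.085) was 0.056 with quantile normalization and 0.047 with loess centring, where the median of the tested genes also fell, from 0.028 to -0.0053 and 0.00068. Under these 2 settings, in that order, the Hsp70 and Hsp90 group was 0.026 and 0.026, the lectins 0.014 and -0.013, the translocon group 0.020 and 0.0073 and the SEC14-like group -0.010 and -0.00054; the COPII coat was 0.077 under loess centring and the COPII organisers 0.085 under quantile normalization. With median centring the lectins were 0.044 and the SEC14-like group -0.0053. Taking means rather than medians, the Hsp70 and Hsp90 group was 0.040 and the COPII organisers 0.19, and the SEC14-like group was 0 over its members at or above the median level. The cause of these moves was not tested. Of 98 alternative counts and medians 77 moved by at most 1.5 times, and no difference past 1.2-fold changed sign. No paired analysis was possible because each group has 1 sample, and no replicate could be left out.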

Other observations

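The exact ERSE or ERSE-II match picks genes by promoter letters alone, and 17 tested genes outside the members held one. Of these 16 were higher in the knockout array and 1 was equal; the median was 0.11, beside 56.9% higher and a median of 0.03 over the tested genes. Under quantile normalization and under loess centring 16 were higher and 1 lower (median 0.08 in both), and after median centring all 17 were higher. Among them were the degradation ligase gene Syvn1 (7.32 to 7.46, 0.15), the oligosaccharyltransferase gene Krtcap2 (10.40 to 10.57, 0.17), the glycosylation gene Alg12 (5.84 to 6.10, 0.26), and the ER chaperone gene Creld2 (8.24 to 8.28, 0.03). The highest were the deadenylase gene Pan2 (5.90 to 6.24, 0.33) and the splicing factor gene Rbm39 (7.88 to 8.16, 0.28), neither of which is known as an ER protein, and Acacb was equal at 4.84. These genes were named after their values were seen, and the count describes 2 arrays. Syvn1, Derl3, Krtcap2 and Creld2 are also in the lists above, so the 17 are not separate from those results. Whether neighbouring genes among them share a match was not checked.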
